A study of Mus musculus with 20 samples.

Results

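The genes described here encode the machinery that makes ribosomes and runs translation: nucleolar proteins, subunits of RNA polymerase I, translation initiation and elongation factors, and aminoacyl-tRNA synthetases. They were chosen by symbol alone, as genes whose only annotated symbol starts with Eif, Eef, Nop, Npm or Polr1, is 1 capital letter followed by ars or ars1, or is Fbl, Gar1, Ebna1bp2, Ncl, Nolc1 or Dkc1. Of 6137 named genes on the arrays, 68 met this rule, and each was represented by its probe set with the highest mean. The 68 comprised 9 nucleolar genes, 5 RNA polymerase I subunit genes, 35 initiation genes, 7 elongation genes and 12 synthetase genes. A filter on dim values left 59 of them for testing, namely 9, 5, 29, 6 and 10 in those 5 roles, and 4108 named genes in all.

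The samples followed 3T3-L1 cells, fibroblasts of an established mouse line able to convert to fat-storing adipocytes, through differentiation induced with the hormone mixture called MDI, commonly isobutylmethylxanthine, dexamethasone and insulin. There was 1 RNA sample at each of 10 time points, measured on 2 Affymetrix array types, A and B, which makes 20 arrays. Time points were grouped into stages: before induction (preconfluent and confluent cells), early (6, 12 and 24 hours after it), middle (days 2 and 3) and late (days 4, 7 and 28). All samples came from the same line, and no uninduced culture kept for the same time was analysed here.

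Ribosomes are built in the nucleolus, where RNA polymerase I transcribes the large ribosomal RNA precursor and small nucleolar ribonucleoproteins guide its methylation and pseudouridylation before it is cut and assembled. The finished subunits are used by initiation factors, which bring the initiator tRNA and the mRNA to the small subunit, and by elongation factors, which deliver charged tRNAs and move the ribosome along. Aminoacyl-tRNA synthetases charge each tRNA with its amino acid. Cells raise this machinery when they grow and divide, and several synthetase genes are known targets of the amino acid response, which acts through the transcription factor ATF4.

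As a check of the cells, the summed intensity of 8 adipocyte marker genes was between 113720 and 132670 in late samples, against 1481 and 1891 before induction. Of 8 fibroblast markers, 2 fell late against before, where 5.21% of named genes did. The summed intensity of all 8 was 60922 and 78755 before induction and 31697, 33528 and 58283 on days 4, 7 and 28. Of the macrophage list 6 of 9 markers passed the filter, with Adgre1, Csf1r and C1qa failing it, of the endothelial list 3 of 6, with Pecam1, Cdh5 and Tie1 failing it, and of the skeletal muscle list 6 of 8, with Acta1 and Tnnc2 failing it. The summed macrophage markers were 5910 and 5998 before induction and ranged between 3799 and 6963 in early and between 3481 and 5253 in late samples. The summed skeletal muscle markers were 4612 and 5156 before induction and 4731, 5851 and 8993 on days 4, 7 and 28. Late against before, 2 macrophage markers fell, where 5.21% of named genes did. In that comparison 1 endothelial and 1 skeletal muscle marker rose, where 6.13% of named genes did. The ratio of 3' to 5' signal of the control gene Gapdh on array A, a measure of RNA integrity and labelling, was 1.14, 1.13 and 0.992 in late samples and 1.61, 1.43 and 1.45 in early samples, while on array B it was 0.737, 0.748 and 0.773 late and 0.722, 0.766 and 0.773 early. For the control gene Actb the ratio on array A was 1.33, 1.29 and 1.41 late and 1.39, 1.41 and 1.45 early. On array B it was 1.02, 0.955 and 1.05 late and 0.801, 0.829 and 1.11 early. The part of these ratios in the comparisons on either array was not tested. Of the genes that fell late against early, Fbl, Gar1 and Ncl were measured on array B. No time point has a replicate, so the p-values of the stage comparisons below reflect only how far adjoining times of a stage lay apart. Those of the trend test reflect only how far samples lay from a smooth curve through the time points. In bulk RNA fewer cells of a type cannot be told apart from less RNA per cell.

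Of the 5 roles, the nucleolar genes had the largest median change between early and late samples. In median over the 9 genes, their level on the log2 scale relative to confluent cells was 1.20 in preconfluent cells, 0.89, 1.23 and 0.95 at 6, 12 and 24 hours, 1.07 and 0.60 on days 2 and 3, and -0.34, -0.25 and -0.67 on days 4, 7 and 28. Thus the confluent sample and the late samples were low, while the growing, preconfluent sample and the first days after induction were high. Over all named genes tested the same medians lay between -0.09 and 0.00.

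**Figure D1:**
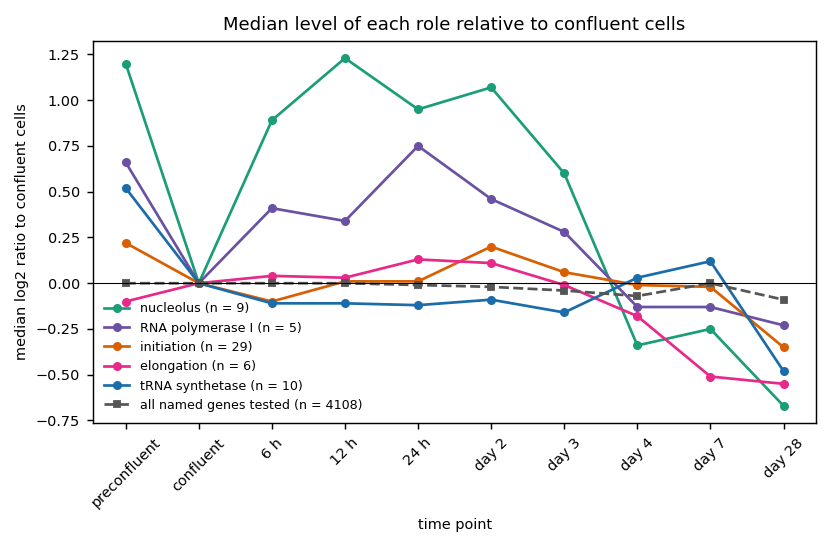
Median level of each role relative to confluent cells (y axis, log2 ratio of floored intensity) at the 10 time points (x axis, in time order, not to scale). The nucleolar line is above 0 in preconfluent cells and between 6 hours and day 3, and below 0 on days 4, 7 and 28, whereas the dashed line of all 4108 named genes tested stays near 0.

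In late against early samples, 5 of the 9 nucleolar genes fell (Ebna1bp2, Fbl, Gar1, Ncl and Nop56), which is 55.6% of them. This used limma's moderated test with Benjamini-Hochberg adjustment over all 7582 probe sets tested and a threshold of adjusted p under 0.05, by which 7.28% of all named genes fell. The nucleolar count was 1 of 9 without the 12-hour sample, 2 without day 28, 3 without 6 hours and 1 with no filter on dim values, and 4 or 5 without any other 1 sample. Counted without a test, 8 of the 9 had every late value below every early value, against 16.3% of named genes. Nop53 was the exception. The median log2 change, late minus early, was -1.33 for the nucleolar genes and -0.07 for all named genes.

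Nop56, a core protein of the box C/D small nucleolar ribonucleoproteins, had intensities of 968 and 204 in preconfluent and confluent cells, 980, 1180 and 763 at 6, 12 and 24 hours, 1110 and 665 on days 2 and 3, and 223, 281 and -17 on days 4, 7 and 28. The confluent and the 3 late samples were low and all others high, so late and early samples did not overlap. It averaged 162 ± 158 late and 974 ± 209 early (SD, n = 3 each), at least 4.57-fold lower late, with a log2 change of -2.23 ± 0.52 (SE) and an adjusted p of 0.0172 in limma. Leaving out 6 hours, 12 hours or day 28 ended the call, as did no filter on dim values. A floor, explained below, of 20 or of 2 times the size used also ended it. The adjusted p was up to 0.119 over these settings (limma). Folds are taken from mean log2 values of floored intensities and so need not equal the ratio of the printed means. Here and below, "at least" marks a fold whose lower side has values at the floor of 136 on array A or 156 on array B, the intensity below which values were not told apart.

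Fbl encodes fibrillarin, the methyltransferase of the same particles. Its intensity was 3910 and 1730 in preconfluent and confluent cells, 2670, 3560 and 3130 at 6, 12 and 24 hours, 4040 and 2620 on days 2 and 3, and 1370, 739 and 563 on days 4, 7 and 28. All 3 late values lay below every other sample's. It averaged 891 ± 424 late and 3120 ± 445 early (SD, n = 3 each), and was 3.74-fold lower late by mean log2 values (log2 change -1.90 ± 0.40 SE, adjusted p = 0.0166, limma). The call was lost without 12 hours, day 7 or day 28, and with no filter on dim values (adjusted p up to 0.0769 over these settings).

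Gar1 encodes a protein of the box H/ACA particles, which convert uridine to pseudouridine in ribosomal RNA. It read 2460 and 1070 before induction, 1980, 1540 and 2070 in early samples, 2020 and 1580 in the middle ones, and 554, 579 and -63 in late ones. The late samples again lay below all others, and day 28 was under the floor. The fold late against early was at least 4.34 (log2 change -2.33 ± 0.51 SE, adjusted p = 0.0206, limma). The call was lost without any 1 of the early samples, with a floor of 20, with no filter on dim values and on an asinh scale. The adjusted p was up to 0.113 over these settings.

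Ebna1bp2 encodes a nucleolar factor needed for the large ribosomal subunit, known from its yeast counterpart. Its values were 1510 and 638 before induction, 1510, 1500 and 1170 early, 1170 and 828 in the middle stage and 304, 467 and 328 late. The confluent sample stood nearest to the late ones, which were below all other samples. It was 3.85-fold lower late than early (log2 change -1.94 ± 0.35 SE, adjusted p = 0.0054, limma), and its other tested probe set went the same way, reading 202, 179 and 341 late and 727, 793 and 585 early.

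Ncl encodes nucleolin, an abundant nucleolar protein that binds the ribosomal RNA precursor. It read 6420 and 3320 before induction, 5240, 6030 and 5780 early, 6020 and 3850 in the middle stage and 1970, 2790 and 2080 late. The late samples lay below all others. It averaged 2280 ± 445 late and 5683 ± 404 early (SD, n = 3 each), and was 2.52-fold lower late by mean log2 values (adjusted p = 0.0172, limma). Without 12 hours, day 4 or day 28, or with no filter on dim values, the adjusted p passed the threshold, at up to 0.0697.

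The other 4 nucleolar genes did not pass the test. Nolc1, whose product is a phosphoprotein that shuttles between nucleolus and Cajal body, read 1060 and 252 before induction, 1070, 1140 and 528 early, 1410 and 852 in the middle stage and 484, 416 and 234 late. The confluent and late samples were the lowest, but the 24-hour value lay just above that of day 4, and the adjusted p was 0.148 (limma, log2 change -1.26 ± 0.53 SE). It was read from a probe set marked as shared by a gene family. Nop16 and Nop10 had log2 changes of -1.11 and -0.56 without overlap, and Nop53 had 0.41 with overlap.

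**Figure D2:**
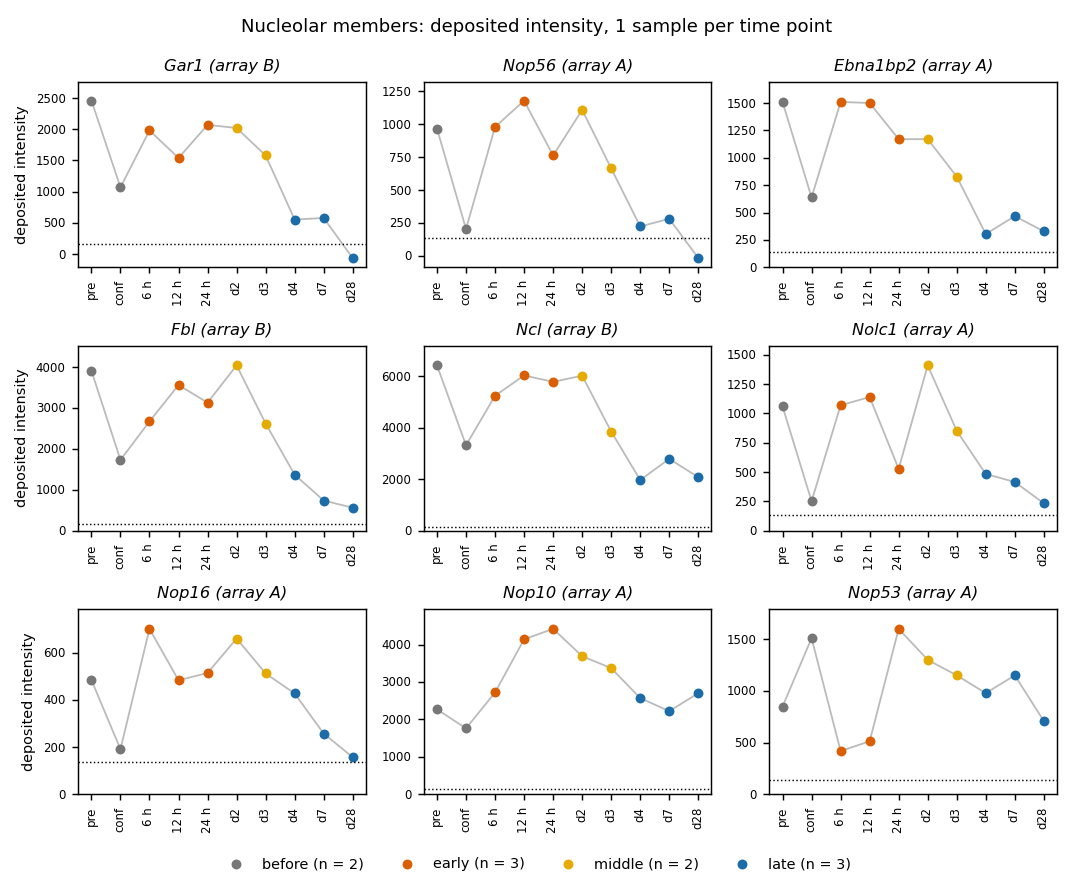
Deposited intensity (y axis, linear, each panel with its own scale) of the 9 nucleolar genes at the 10 time points (x axis: preconfluent, confluent, hours and days after induction), 1 point per sample, coloured by stage; the dotted line is the floor of the array type. In 8 panels the 3 late points lie below the 3 early points, and in all panels except Nop53 the confluent point lies below the preconfluent one.

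Against the samples before induction, 3 genes fell in late samples, Ebna1bp2, Fbl and Gar1, all of them nucleolar. They are 5.08% of the 59 genes, close to the 5.21% of all named genes that fell. The log2 changes were -1.45 ± 0.39 for Ebna1bp2, -1.65 ± 0.44 for Fbl and -2.14 ± 0.57 for Gar1, with adjusted p between 0.0393 and 0.0488 (limma). Each of these calls was lost when the preconfluent sample was left out, with log2 changes that kept their sign, and each in 14 of 17 alternatives. No gene of the 59 rose late against before by limma, against 6.13% of named genes, and 3 (5.08%) did at an unadjusted p under 0.05, against 11.5%.

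The confluent and preconfluent samples differ by growth state and are 1 sample each, so their comparison has no test. Confluent cells were past 1.5-fold lower for 20 of the 59 genes, 33.9%, against 15.0% of named genes. Among them were 7 of 9 nucleolar, 3 of 5 RNA polymerase I and 4 of 10 synthetase genes. Relative to the preconfluent value, the confluent value was 0.211 times for Nop56, 0.238 times for Nolc1, 0.395 times for Nop16 and 0.423 times for Ebna1bp2. In the other direction, 7 of the 59 (11.9%) were past 1.5-fold higher, against 17.4% of named genes: Nop53 and the initiation genes Eif2b4, Eif2b5, Eif3h, Eif3k, Eif3m and Eif4b.

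At 6 hours against confluent cells, again 1 sample each, 13 of the 59 genes (22.0%) were past 1.5-fold higher, where 16.6% of named genes were. They included 8 of the 9 nucleolar genes, led by Nop56 at 4.80 times, Nolc1 at 4.25 times and Nop16 at 3.67 times the confluent value. The remaining 5 were Polr1b, Eif2b1, Eif3b, Eif5 and Hars. Lower by the same measure were 7 genes (11.9%, against 16.9% of named genes): Aars, Cars and Sars among the synthetases, Eif2a, Eif2b4 and Eif4b among the initiation genes, and Nop53 at 0.277 times.

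The fit of early against before samples called none of the 59 genes in either direction by limma, where 0.195% of named genes rose and 0.170% fell. At an unadjusted p under 0.05, 3 were higher (Eif2b1, Hars and Nop10) and 3 lower (Aars, Cars and Eif3c), 5.08% each. Of all named genes 4.11% were higher and 4.99% lower by that threshold, so these shares are near the background. By overlap alone, 6 genes (10.2%) had all early values above both before values, against 9.62% of named genes, and 7 (11.9%) had all of them below, against 12.9%. In this comparison the stage before induction holds both the preconfluent sample, where nucleolar genes were high, and the confluent one, where they were low. Set against confluent cells alone, 8 of 9 nucleolar genes had all 3 early values above the confluent value, as did 20.9% of all named genes.

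Other genes of ribosome production, from a list of nucleolar and ribosome assembly factors outside the 68, gave 38 tested genes. Late against early, 7 of these fell and 0 rose, where 7.28% and 7.52% of named genes did, with a median log2 change of -0.46. Of the 7, Rrp1b and Wdr75, singled out after their values were seen, passed the filter only through the early samples. Late against before, 2 of 38 were past the threshold downwards, a share near the 5.21% of named genes. Tcof1, which encodes treacle, a factor for ribosomal RNA transcription, was at least 5-fold lower. Utp14a, a component of the small subunit processome, was at least 4.23-fold lower. All late values of both were under the floor, so these are bounds. Both passed the filter only through the other stages, so no p is given. Genes of DNA replication and mitosis moved in the same comparison: of 22 tested, 7 fell late against early, with a median log2 change of -1.56. Racgap1, needed for cytokinesis, read 232, 247 and 135 late and 1520, 1820 and 3060 early. The part of cell division in the nucleolar changes was not tested.

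RNA polymerase I subunit genes gave no call in the 3 stage comparisons or in the trend along the series (5 tested). Their median log2 change, late minus early, was -0.37. The nearest to a call were Polr1b, a catalytic core subunit gene, at -0.97 ± 0.29 (adjusted p = 0.052), and Polr1a, the gene of the largest subunit, at -0.83 ± 0.29 (adjusted p = 0.0907, limma, SE). Both had every late value below every early value: Polr1a read 496, 314 and 509 late and 793, 802 and 696 early. Polr1d, whose product is shared with RNA polymerase III, read 1690 and 1950 before induction, 1660, 2180 and 2340 early, 2200 and 2370 in the middle stage and 1780, 1780 and 1230 late. Its stages overlapped and its log2 change of -0.37 had an adjusted p of 0.406.

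Of the 29 initiation genes tested, 2 were past the threshold upwards and 1 downwards in late against early samples, and the median log2 change of the role was -0.27. Over all 59 genes, 2 were past it upwards (3.39%), against 7.52% of named genes, and both were initiation genes, of which Eif2d was carried by the filter, as described below. Eif4ebp1 encodes 4E-BP1, which binds the cap-binding protein eIF4E and blocks initiation until mTOR phosphorylates it. Its intensity was 8490 and 6600 in preconfluent and confluent cells, 6880, 4280 and 3980 at 6, 12 and 24 hours, 5040 and 8370 on days 2 and 3, and 12400, 14400 and 15200 on days 4, 7 and 28. The 3 late samples were the highest of the series and the 12- and 24-hour samples the lowest. The late mean was 14000 ± 1442 and the early mean 5047 ± 1595 (SD, n = 3 each), and the fold from mean log2 values was 2.85 (log2 change 1.51 ± 0.31 SE, adjusted p = 0.0101, limma). Against the samples before induction the late level was 1.86-fold higher without overlap, which did not pass the test (adjusted p = 0.132). The call late against early held in all 16 alternatives tried.

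Eif2d, which encodes a factor that can place initiator tRNA without eIF2, read 218 and 146 before induction, 73, 28 and 43 early, 95 and 229 in the middle stage and 277, 341 and 229 late. All early values were under the floor, so the late level was at least 2.05-fold above. The gene passed the filter only through the stages in which it was high, so this difference is given as a description; with no filter its adjusted p was 0.0878 (limma). Its second tested probe set, reading 237, 418 and -207 late and -135, -60 and 151 early, overlapped between the stages. Its place past the threshold was lost in 8 of 16 alternatives, among them the removal of any 1 early sample, of day 4 or of day 7.

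Eif3h encodes a subunit of eIF3, the scaffold that holds initiation factors on the small ribosomal subunit. It read 2830 and 4410 before induction, 4450, 3930 and 3940 early, 3830 and 3430 in the middle stage and 2110, 2500 and 2100 late. The late samples lay below all others. It was 1.84-fold lower late than early (log2 change -0.88 ± 0.26 SE, adjusted p = 0.0475, limma). This call was lost in 11 of 16 alternatives, among them the removal of any 1 sample after induction. The other tested probe set of the gene read 1520, 2010 and 1620 late and 2570, 2640 and 2350 early, without overlap. There the log2 change was -0.56 ± 0.27 and not called (SE, adjusted p = 0.198, limma). Of the other eIF3 subunit genes tested, Eif3k and Eif3a also had all late values below the early ones, with adjusted p of 0.0903 and 0.161 (limma). Late and early samples overlapped for Eif3b, Eif3d, Eif3e, Eif3l and Eif3m. Eif3c went the other way, with overlap, at a log2 change of 0.45. It read 4410, 4100 and 3090 late and 3150, 2820 and 2470 early.

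Eif4e2 encodes a cap-binding relative of eIF4E, often counted as a repressor. It read 1080 and 930 before induction, 1030, 991 and 938 early, 1070 and 1000 in the middle stage and 1020, 504 and 350 late. It was level until day 4 and low on days 7 and 28, and it changed in the trend test along the series (adjusted p = 0.0172, limma) but in none of the stage comparisons. Leaving out day 7 or day 28 ended this call, with an adjusted p of 0.0504 and 0.270. Eif4e itself, the cap-binding factor, stayed between -5 and 80 at all time points, under the floor of array A, so only a bound can be given. Eif3i, Eif3j1, Eif4enif1, Eif4h and Eif6 were likewise under the floor in every sample and were not tested. The initiation genes tested and not called had log2 changes, late minus early, between -1.30 for Eif1a, whose product helps the small subunit scan the mRNA, and 1.21 for Eif2b4.

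Genes for eIF2, its exchange factor eIF2B and the kinase encoded by Eif2ak2, through which cells lower initiation under stress, gave no call in the stage comparisons or the trend. Eif2b4, for a subunit of the exchange factor eIF2B, read 12 in preconfluent cells, 582 in confluent cells, 184, 346 and 719 early and 826, 797 and 869 late. It was under the floor in preconfluent cells alone, and the late samples lay above the early ones without a call (adjusted p = 0.181). Eif2b1, for another subunit, was lowest in confluent cells at 301 and highest on day 2 at 979. A further 15 translation factors and regulators outside the 68 gave no call in the 3 stage comparisons by limma. In the trend test 1 of them changed, where 17.3% of named genes did: the mitochondrial elongation factor gene Gfm1 (adjusted p = 0.0482, limma).

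Of the 6 elongation genes tested, 2 (33.3%) fell late against early, where 7.28% of named genes fell, and none rose, where 7.52% did. Eef1d and Eef1b2 encode subunits of eEF1B, which reloads eEF1A with GTP, and both of them fell. Eef1d read 4930 and 4200 before induction, 6180, 6490 and 8560 early, 7400 and 5680 in the middle stage and 2750, 2690 and 2770 late. Late samples were the 3 lowest of the series and differed little among themselves. It averaged 2737 ± 41.6 late and 7077 ± 1294 early (SD, n = 3 each), and was 2.56-fold lower late by mean log2 values (log2 change -1.36 ± 0.26 SE, adjusted p = 0.00659, limma), and this call held in all 16 alternatives. Eef1b2 read 2960 and 4190 before induction, 4570, 3660 and 5740 early, 5010 and 3540 in the middle stage and 2210, 2060 and 1960 late. Its late samples were also the 3 lowest, 2.21-fold below early (adjusted p = 0.0229, limma), from a probe set shared by a gene family, and the call was lost without 6 hours, 24 hours, day 7 or day 28 (adjusted p up to 0.0729).

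The genes of the factors that carry out each elongation step gave no call. Eef1a1, for the tRNA carrier eEF1A, read 25400 and 28700 before induction, 36000, 37100 and 24900 early, 26000 and 28800 in the middle stage and 28500, 24200 and 27200 late. Eef2, for the translocase eEF2, read 6040 and 8810 before induction, 6910, 8160 and 9030 early, 8600 and 7570 in the middle stage and 7760, 8440 and 6370 late. Stages overlapped for both, with log2 changes late minus early of -0.28 ± 0.26 and -0.10 ± 0.20 (SE), and both were read from family probe sets. Other tested probe sets of Eef1a1, also shared by a gene family, differed in direction. That on array B read 11100, 12200 and 9820 late and 7000, 9750 and 9290 early, without overlap. Its log2 change was 0.36 ± 0.18 (SE, adjusted p = 0.242, limma). Those on array A had log2 changes of -0.42 and -0.36. Eef1g, for the third eEF1B subunit, and Eef2k, for the kinase that inhibits eEF2, gave no call either. The log2 change of Eef1g was -0.52, and Eef2k was at least 1.24-fold lower, with day 7 under the floor. Eef1a2, the muscle and nerve form, was above the floor in 1 sample and was not tested.

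**Figure D3:**
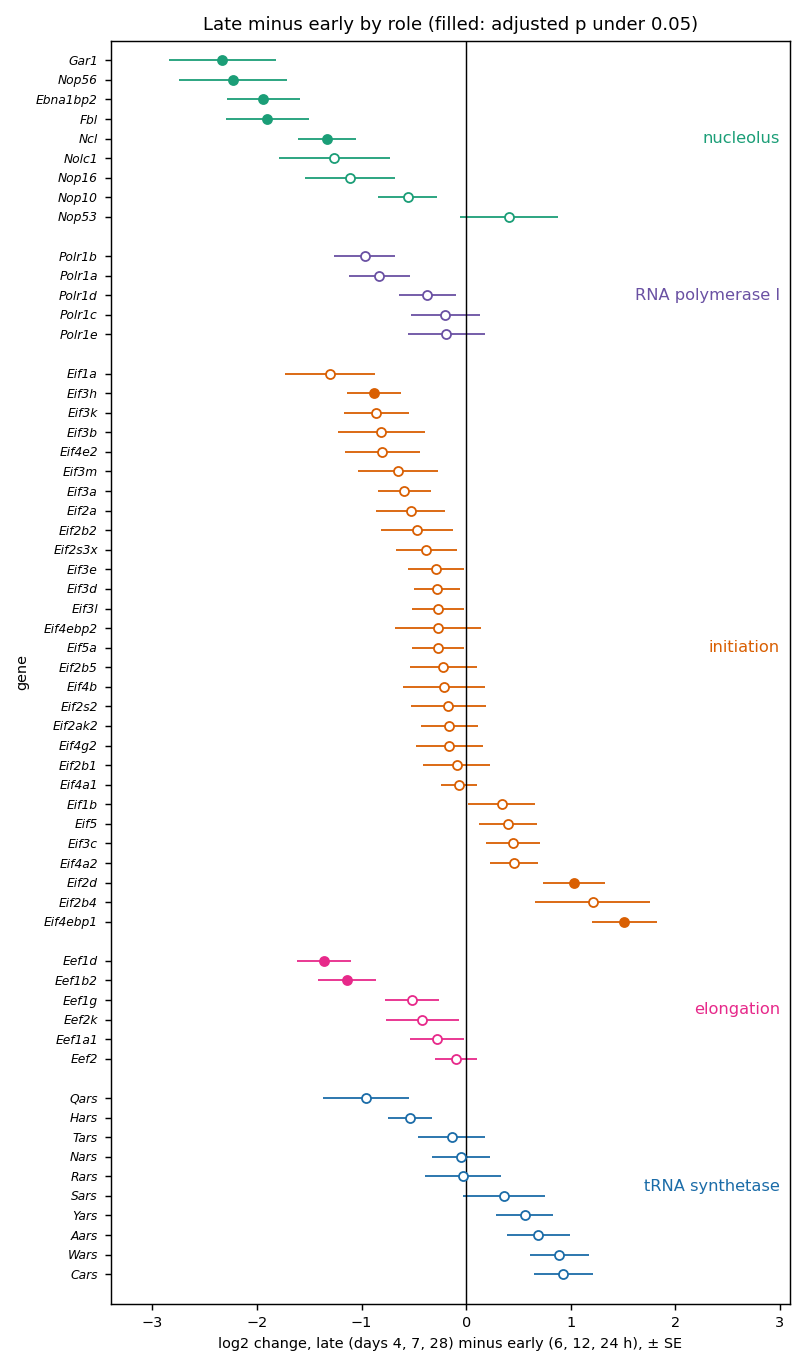
Log2 change, late minus early, of the 59 tested genes by role (x axis; points with bars of 1 SE from limma; filled where the adjusted p is under 0.05). Of the filled points, 5 nucleolar, 1 initiation (Eif3h) and 2 elongation genes lie below 0, and Eif2d and Eif4ebp1 above it.

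Put together over the 5 roles, 8 of the 59 genes fell late against early, 13.6% against the background of 7.28%. This count depended on single samples: it was 3 without 12 hours, 3 without day 28, 4 without 6 hours and 5 without 24 hours, and it was 4 with no filter on dim values. In the trend test, a natural cubic spline through the 10 time points, 8 changed (13.6%, against 17.3% of named genes): Ebna1bp2, Fbl, Gar1, Eef1b2, Eef1d, Eif4e2, Eif4ebp1 and Cars. Leaving out any 1 of the early, middle or late samples ended this call for Ebna1bp2 and Eef1d. For Eef1b2 it was lost when any 1 sample other than 12 hours was left out, and for Gar1 without day 28. Without a test, 17 (28.8%) had all late values below the early ones, against 16.3% of named genes, and 7 (11.9%) had all of them above, against 14.5%. These 7 were Eif4ebp1, Eif2d, Eif2b4 and the synthetase genes Aars, Cars, Wars and Yars.

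**Figure D4:**
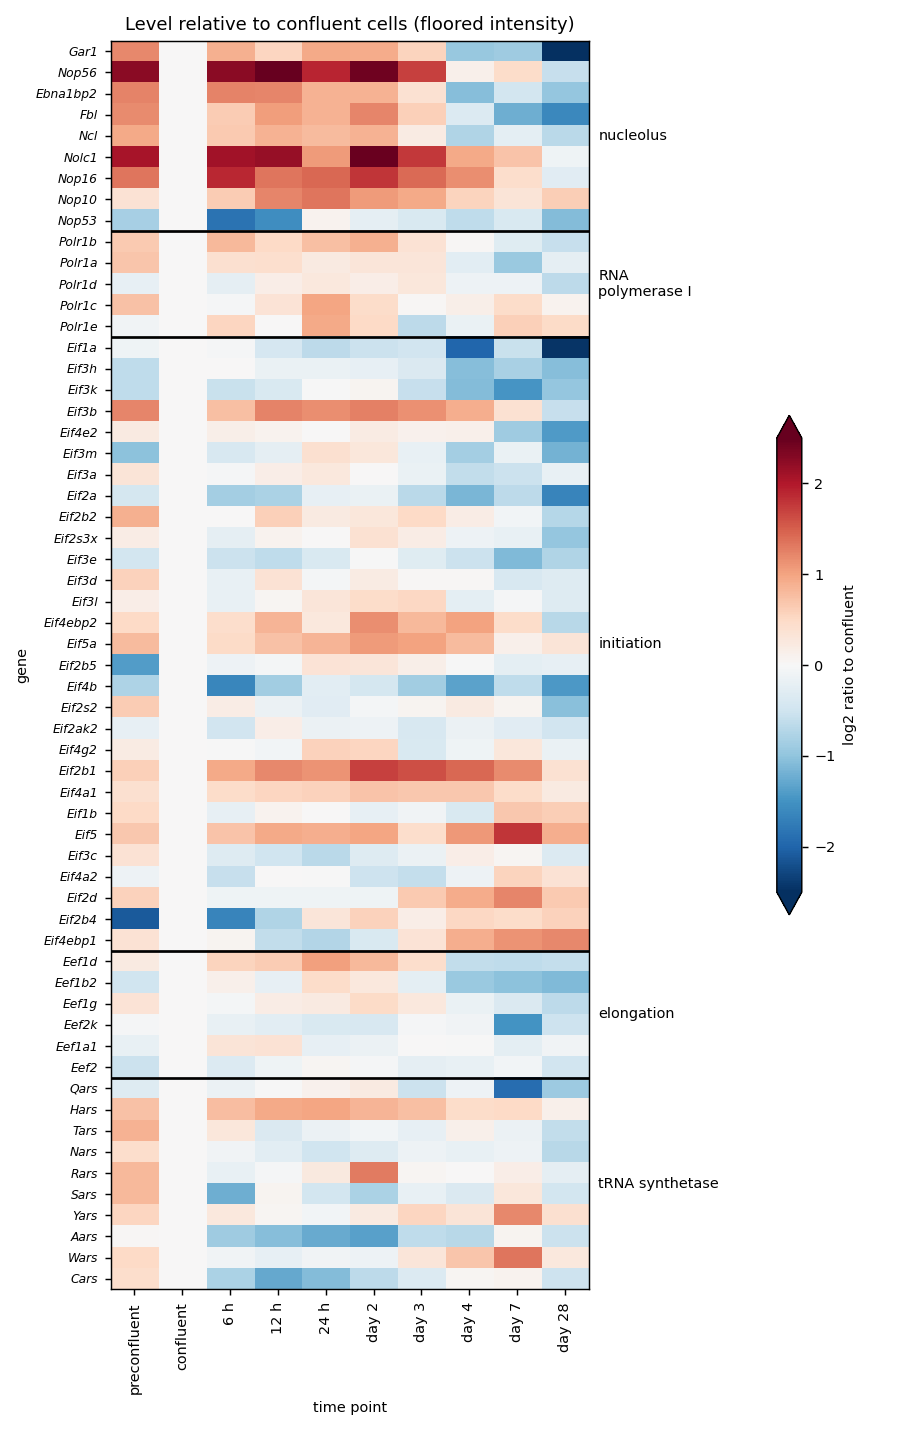
Level of the 59 tested genes at each time point as the log2 ratio to confluent cells (colour; red above and blue below confluent, saturating past 2.5), with genes in rows by role and ordered within a role by their change late minus early. Nucleolar rows are red in preconfluent cells and between 6 hours and day 3 except for Nop53, and mostly pale or blue on days 4, 7 and 28.

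The 10 synthetase genes tested gave no call in the 3 stage comparisons by limma. On the log2 scale relative to confluent cells, their median was 0.52 in preconfluent cells, -0.11, -0.11 and -0.12 at 6, 12 and 24 hours, -0.09 and -0.16 on days 2 and 3, and 0.03, 0.12 and -0.48 on days 4, 7 and 28. Late medians lay both above and below the early ones, and the median change late minus early was 0.17. At an unadjusted p under 0.05 Aars, Cars and Wars were higher late than early, and Hars and Qars lower. By that threshold 13.0% of all named genes were higher and 14.9% lower. Cars, for cysteinyl-tRNA synthetase, changed in the trend test (adjusted p = 0.0197, limma), though not without 12 hours, 24 hours or day 4 (adjusted p up to 0.0654). This call was also lost with 2 spline degrees of freedom (adjusted p = 0.225, limma). Cars read 1170 and 863 before induction, 497, 355 and 405 at 6, 12 and 24 hours, 550 and 680 on days 2 and 3, and 889, 912 and 607 on days 4, 7 and 28. Values were high before induction, lowest at 12 hours and higher again late, with no overlap of the early samples with the late or before samples. Early against before, the log2 change was -1.28 ± 0.32 (SE; adjusted p = 0.166), and late against early 0.93 ± 0.28 (adjusted p = 0.053).

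Aars, for alanyl-tRNA synthetase, read 5870 and 5800 before induction, 3150, 2760 and 2420 early, 2260 and 3710 in the middle stage and 3570, 6100 and 4020 late. The early samples lay below all late and all before samples, while the day 2 value was the lowest of all. It averaged 2777 ± 365 early (SD, n = 3) and 5835 ± 49.5 before induction (SD, n = 2), and the level by mean log2 values, 2.11-fold lower early, did not pass the test (adjusted p = 0.273, limma). A second probe set of the gene read 2980 and 2930 before induction, 1440, 1850 and 1510 early and 2000, 3660 and 1830 late. There too the early values lay below those before induction, but late and early values overlapped.

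Wars, for tryptophanyl-tRNA synthetase, read 1060 and 754 before induction, 714, 658 and 706 early, 694 and 935 in the middle stage and 1220, 1900 and 911 late. It was highest on day 7, and the late samples lay above the early ones with an adjusted p of 0.0695. Yars, for tyrosyl-tRNA synthetase, was also highest on day 7, at 519, but its early values of 269, 233 and 215 overlapped with those before induction. Its other tested probe set read 97, 335 and 193 late and 329, 253 and 109 early, which overlapped, with a log2 change of -0.12. Sars, for seryl-tRNA synthetase, read 1400 and 791 before induction, 340, 829 and 577 early, 459 and 692 in the middle stage and 616, 959 and 580 late, so its stages overlapped.

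Of the other tested synthetase genes, Hars, for histidyl-tRNA synthetase, was higher in all early samples, at 576, 650 and 664, than in the late ones, at 464, 477 and 368. Nars lay between 1750 and 3850, Tars between 539 and 1520, Rars between 385 and 1110 and Qars between 275 and 1200, and their late and early samples overlapped. Kars and Mars1 did not pass the filter. Of 8 further genes of synthetases, their partners and tRNA processing outside the 68, none was called in the stage comparisons. In the trend test 2 changed, where 17.3% of named genes did: Farsa and Trmt1 (adjusted p = 0.0307 and 0.0411, limma). Trmt1 read 1170 on day 28 and between -11 and 249 at all other times.

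**Figure D5:**
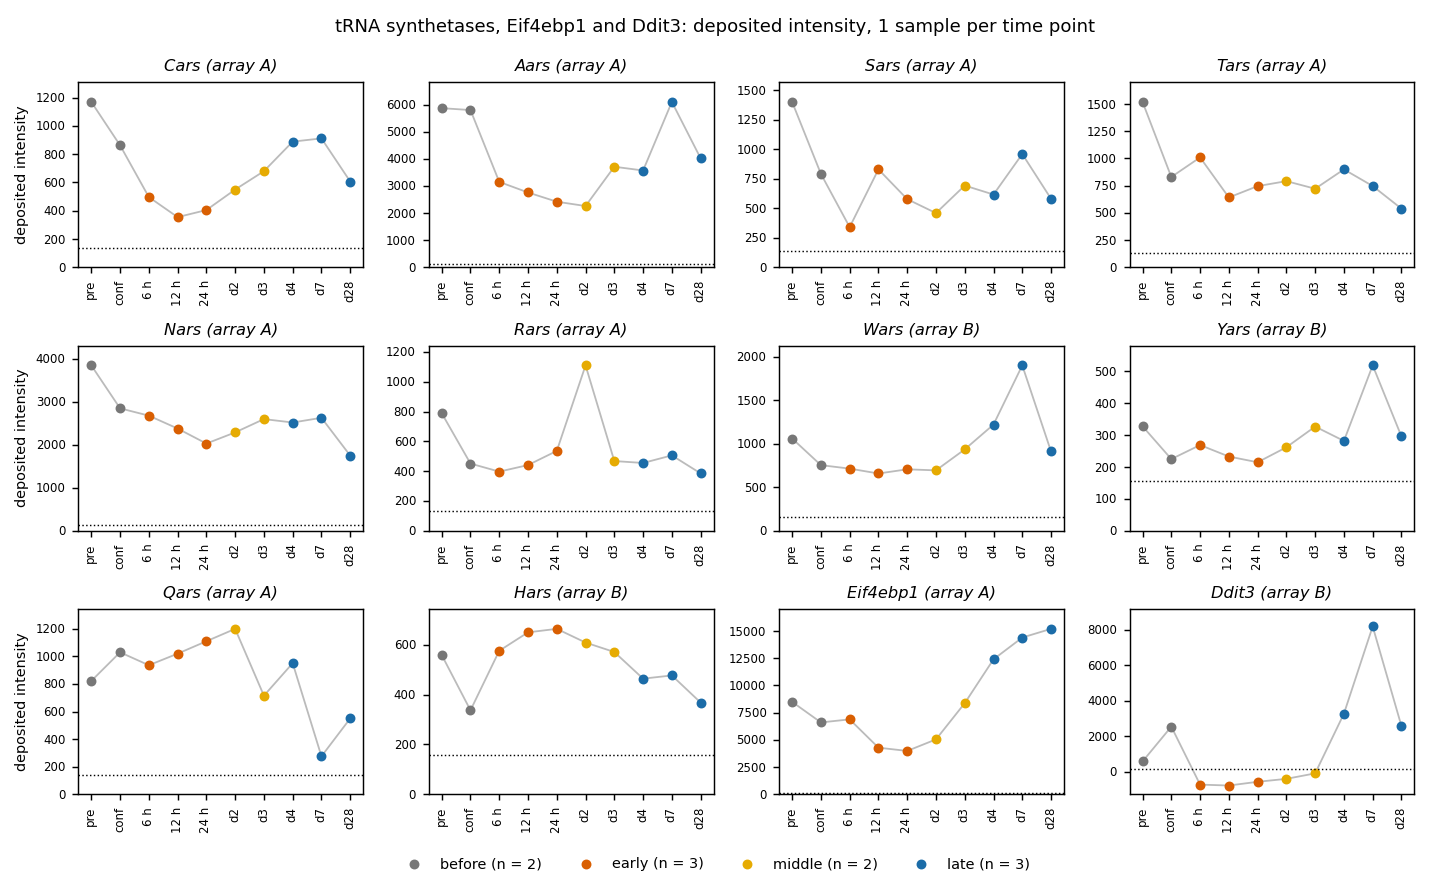
Deposited intensity (y axis, linear, each panel with its own scale) at the 10 time points (x axis) of the 10 tested synthetase genes, ordered by their change early minus before, then Eif4ebp1 and, from outside the 68 genes, Ddit3; points are single samples coloured by stage, and the dotted line is the floor. For Cars and Aars the 3 early points lie below the before and the late points, while Eif4ebp1 is highest on day 28 and Ddit3 on day 7.

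Genes of the amino acid response and of serine and asparagine synthesis were set beside the synthetases, 16 tested. Late against early, 1 of the 16 was past the threshold upwards, where 7.52% of named genes rose. This was Ddit3, for the stress-induced transcription factor CHOP, which was singled out after its values were seen. It read 575 and 2540 before induction, -729, -781 and -571 early, -405 and -95 in the middle stage and 3270, 8190 and 2570 late, so it was under the floor early and at least 26.3-fold higher late. It passed the filter only through the late and the before samples, so no p is given. Late against before, 1 of the 16 rose, a share near the 6.13% of named genes: Slc1a5, a glutamine transporter gene, 4.75-fold (adjusted p = 0.00922, limma). The median log2 change of the list was -0.23 early minus before and 0.32 late minus early, and that of the 10 synthetase genes -0.44 and 0.17.

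Promoter windows of 300 bases around the annotated start, taken from RefSeq on the mouse build GRCm38.p6, were found for 52 of the 68 genes. Eif3h, Eif4g2, Eef1g, Eef1d, Eif1a, Eif3e, Nop53, Eif3i, Fbl, Hars, Wars, Eif6, Nars, Cars, Rars and Eif4ebp1 had no entry there. The amino acid response motif TGATGNAAN, to which ATF4 with a C/EBP partner is known to bind, was searched on both strands. It occurred in windows of 3 of the 7 synthetase genes with an entry (Aars, Tars and Yars), 42.9%, and in 4.50% of all 27025 genes of the table. Over all 52 genes with an entry it occurred in 5 (9.62%), the other 2 being Eef2k and Eif2s3x, and in 1 of 28 initiation genes (3.57%). The 3 synthetase matches are shown because synthetase genes are known targets of this response. They are given 5′ to 3′ on the gene's strand, with the motif in capitals and up to 40 bases on either side, and none runs past the annotated start beyond the motif.
Aars, chr8:111033689-111033777, + strand: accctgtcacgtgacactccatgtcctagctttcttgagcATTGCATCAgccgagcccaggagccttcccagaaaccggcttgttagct
Tars, chr15:11399659-11399714, - strand: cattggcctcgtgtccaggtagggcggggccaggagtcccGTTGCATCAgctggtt
Yars, chr4:129189866-129189914, + strand: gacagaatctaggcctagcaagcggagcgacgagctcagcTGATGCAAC
In Aars and Tars the motif was read from the opposite strand, 113 and 16 bases before the start, and in Yars from the gene's strand, 3 bases after it. The Aars window held a second match 8 bases after the start. Tars, with the same motif, read 900, 747 and 539 late and 1010, 642 and 746 early, which overlapped.

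The E-box CACGTG, bound by MYC with MAX, occurred in windows of 11 of the 52 genes, 21.2%, and in 8.09% of all genes of the table. It was in 0 of the 7 nucleolar genes with an entry, 7 of 28 initiation genes, 2 of 5 elongation genes and 2 of 7 synthetase genes. In Aars it lay upstream of the response motif shown above and did not overlap it. A start of pyrimidines only, at least 6 C or T bases beginning with C within 5 bases of the annotated start, was found on the gene's strand for 5 of 52 (9.62%), against 11.9% of all genes. A match describes the letters of these windows only.

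Of the MYC family and mTOR pathway, 10 genes were tested. Late against before, 1 was past the threshold upwards and 2 downwards, where 6.13% and 5.21% of named genes were. Mxi1, for a MAX partner that opposes MYC, read 471, 675 and 742 late and 19 and 54 before induction, at least 4.54-fold higher; it passed the filter only through the late samples, so no p is given. Late against before, Akt1 fell 1.85-fold and Mlst8, for an mTOR complex subunit, at least 2.72-fold (adjusted p = 0.0108 and 0.0327, limma). Late against early, 2 of the 10 were past the threshold upwards, Mxi1 and Mxd4, and 3 downwards, Akt1, Mlst8 and Tsc2. Of all named genes 7.52% rose and 7.28% fell in that comparison. Mxd4 and Tsc2 were singled out after their values were seen. Mxd4 was under the floor in all early samples, and Tsc2 on days 4 and 28. Myc, singled out after its values were seen, read 331 and 101 before induction, 438, 584 and 325 early, 482 and 234 in the middle stage and 322, 177 and -39 late. It was under the floor in confluent cells and on day 28 and was not called (adjusted p = 0.128 late against early).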

How the data were processed

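Total RNA was extracted with Trizol and labelled after the array maker's manual, per the labels' protocols. The values used are the deposited linear intensity per probe set, which the authors had scaled to a common level (trimmed means between 500.9 and 501.1); which software they used is not given in the sources used here. Negative values made up 22.7% to 31.2% of an array. Values were raised to a floor of 136 (array A) or 156 (array B), the size of the 10th percentile, before log2, and a probe set was tested if above 182 or 156 in at least 2 samples, which left 7582 of 13069. Stage contrasts came from limma (version 3.58.1, under R 4.3.3), fitted to all 10 samples of an array type at a time, with Benjamini-Hochberg adjustment over both, and a spline with 3 degrees of freedom gave the trend. The scripts were tested on simulated data. The number of arrays limits the precision.

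Gene symbols came from the platform annotation: 7542 probe sets had 1 symbol, 224 several and 5303 none. Genes described with all values were those called, those with the highest mean of their role and a fixed list of well-known factors. Genes outside the 68 came from lists, with up to 3 called per list apart from those marked as singled out after their values were seen. The genes, lists and tests were chosen with earlier results of these data known. Alternatives covered the floor, the filter, quantile normalization, an asinh scale, the baseline, the probe set, the spline and each time point left out.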

Additional observations from a re-analysis of the deposited data

How the results depend on the processing

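No change named for a called gene turned its direction under any alternative run. The number of genes called late against before, 3 as reported, was 1 with the floor doubled in size, 0 with a floor of 20, 0 without a filter, 0 on an asinh scale and 0 with confluent cells alone as the baseline, and between 0 and 6 with 1 time point left out; the 6 came without the confluent sample, and 0 remained without the preconfluent sample, any early or any middle sample. Late against early, 10 as reported, it was 5 without a filter and between 4 and 11 with 1 time point left out (5, 4 and 6 without 6, 12 and 24 hours). Ebna1bp2, Eef1d and Eif4ebp1 were called in all 16 alternatives, while Fbl, Ncl and Eef1b2 each lost the call in 4, Gar1 and Nop56 in 6. In the trend, 8 as reported, it was 4 without a filter, 13 with 2 spline degrees of freedom, and between 4 and 15 with 1 time point left out (15 without the confluent sample); of its calls, Eif4ebp1 held in all 18 alternatives, and Ebna1bp2 and Eef1b2 were lost in 14 and Eef1d in 13. Early against before, it was 0 in every alternative. The counts past 1.5-fold were 27 as reported and 25 to 28 for confluent against preconfluent cells, and 20 as reported and 19 to 21 for 6 hours against confluent cells. The cause of these shifts was not tested. Quantile normalization moved the median of all tested probe sets, late minus early, to -0.03, against -0.05 as reported. Levels near the floor, as for Eif2d, Eif2b4, Myc, Ddit3, Mxi1 and the late values of Nop56, Gar1, Eef2k, Tcof1 and Utp14a, are bounds only. No paired analysis was possible because each stage number marks a different time point.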
